A study of Mus musculus with 9 samples.

Results

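The thrombospondins and the Cd36 family of receptors are described here in 66cl4 cells, a cultured mouse line of triple negative mammary carcinoma. The members are the 4 thrombospondin genes Thbs1, Thbs2, Thbs3 and Thbs4 and the 3 receptor genes Cd36, Scarb1 and Scarb2. They were taken by symbol from the deposited count table, which gave 7 of its 55418 symbols. The group was chosen by earlier values of Thbs1 (both Eya3 hairpins against the control hairpin) and of Cd36 (the second Eya3 hairpin against the control) in these same libraries, so both are described with their values and fold changes and without a test. The other members were read from a test fitted over all genes.

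The libraries came from cells carrying the Eya3 hairpin shEya3_KD1, cells carrying a second Eya3 hairpin, shEya3_KD2, and cells carrying a scrambled hairpin (SCR), with 3 biological replicates in each group. Cells cut a short hairpin RNA into a small RNA, which directs the loss of messenger RNAs of matching sequence. Eya3 encodes a phosphatase that is also a transcriptional cofactor. The cells of all 3 groups had been transduced and were kept in puromycin at 2.5 ug/ml, so that drug and a hairpin are common to the controls too. Whether a group was a single clone or a pool, and whether its replicates were transduced separately, is not given in the sources used here, so p-values measure the spread between these cultures.

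Thrombospondins are large secreted glycoproteins of the extracellular matrix that bind calcium, matrix proteins and cell surface receptors. Thbs1 and Thbs2 form trimers and carry type 1 repeats, through which they bind Cd36 and restrain the growth of blood vessels, and Thbs1 can also release TGF-beta from its latent complex. Thbs3, Thbs4 and the cartilage protein Comp form pentamers and lack those repeats. Cd36, Scarb1 and Scarb2 share a fold in which a large outer domain, anchored at both ends, holds a tunnel for lipids. Cd36 takes up long-chain fatty acids and oxidised lipoproteins, Scarb1 takes cholesterol esters from high density lipoprotein, and Scarb2 (also called Limp2) lies in the lysosome membrane.

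Library totals lay between 27758862 and 52691960 counts. Eya3 averaged 23.1 ± 1.71 counts per 1e6 counts (CPM) in shEya3_KD1 cells, 37.5 ± 3.02 CPM in shEya3_KD2 cells and 72.9 ± 5.56 CPM in SCR cells (SD, n = 3 each), and fell with both hairpins. By edgeR's quasi-likelihood test at a Benjamini-Hochberg adjusted p of 0.05, shEya3_KD1 differed from SCR in 50.3% of the 15914 genes tested, shEya3_KD2 differed from SCR in 45.3%, and shEya3_KD2 differed from shEya3_KD1 in 49.6%. Keratin 8 (Krt8) was abundant in all groups, at 679 CPM or more on average, while Epcam had no counts in any library. The 12 epithelial and carcinoma markers listed did not move together. Krt18 had 112 counts in shEya3_KD1, 308 in shEya3_KD2 and 4 in SCR libraries, and Cdh1 had 5, 22 and 9. Krt14 averaged 0.561, 11.8 and 1.32 CPM in the same order, Esr1 14.8, 16.0 and 7.12 CPM, and Erbb2 65.4, 67.1 and 53.6 CPM. Several members mark other cells in tissue, so markers of those cells were summed. The 12 macrophage markers summed to 35.1 to 39.5 CPM in shEya3_KD1, 34.5 to 40.6 CPM in shEya3_KD2 and 79.6 to 81.8 CPM in SCR libraries, with C1qa and C1qc at 0 throughout. The 8 adipocyte markers summed to 0.549 to 0.819, 0.176 to 0.296 and 1.56 to 2.20 CPM in the same order, with Cfd at 0 throughout. The 10 endothelial markers gave 5.49 to 6.54, 5.05 to 6.17 and 6.97 to 8.13 CPM with Cldn5 at 0. Not all of them followed that sum. Emcn had 264 counts in shEya3_KD1, 0 in shEya3_KD2 and 2 in SCR libraries, and Vwf had 74, 27 and 29. Cdh5 had 31, 253 and 530 counts in the same order, and Tie1 had 21, 12 and 103. The 8 platelet markers gave 2.22 to 2.36, 2.52 to 2.86 and 3.39 to 3.85 CPM with Gp1bb and Gp6 at 0. The 8 fibroblast markers gave 53.7 to 58.7, 30.9 to 45.3 and 28.9 to 36.0 CPM, led by Pdgfra, and none was at 0 in every library. Among them Col1a2 had 528, 14 and 12 counts and Pdgfrb 1400, 314 and 85, while Col1a1 had 154, 287 and 525. The part of these marker differences in the results on Thbs1 and Cd36 was not tested. In bulk RNA, fewer cells that express a gene and less RNA per cell cannot be told apart.

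The promoter windows of 3 members are shown because their genes give the contrasting patterns described below: Cd36 was without counts with a single hairpin, Thbs3 was higher with both, and Scarb2 differed little. Each runs from 250 bases before to 50 bases after the RefSeq start (GRCm38.p6), 5′ to 3′ on the gene's strand, and capitals mark the GC box GGGCGG on either strand.
Cd36, chr5:17835847-17836146, minus strand: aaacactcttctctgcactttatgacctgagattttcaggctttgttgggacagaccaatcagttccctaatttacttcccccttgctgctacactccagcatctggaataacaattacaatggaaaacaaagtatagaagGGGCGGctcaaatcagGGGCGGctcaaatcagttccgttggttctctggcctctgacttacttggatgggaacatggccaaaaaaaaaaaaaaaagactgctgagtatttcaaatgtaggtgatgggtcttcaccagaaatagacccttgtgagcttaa
Thbs3, chr3:89214930-89215229, plus strand: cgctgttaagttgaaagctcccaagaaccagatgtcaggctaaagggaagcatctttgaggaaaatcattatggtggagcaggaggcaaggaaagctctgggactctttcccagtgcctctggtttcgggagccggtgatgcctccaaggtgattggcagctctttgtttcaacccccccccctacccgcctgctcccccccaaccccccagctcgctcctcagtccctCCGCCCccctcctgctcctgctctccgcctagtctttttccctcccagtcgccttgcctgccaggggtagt
Scarb2, chr5:92505608-92505907, minus strand: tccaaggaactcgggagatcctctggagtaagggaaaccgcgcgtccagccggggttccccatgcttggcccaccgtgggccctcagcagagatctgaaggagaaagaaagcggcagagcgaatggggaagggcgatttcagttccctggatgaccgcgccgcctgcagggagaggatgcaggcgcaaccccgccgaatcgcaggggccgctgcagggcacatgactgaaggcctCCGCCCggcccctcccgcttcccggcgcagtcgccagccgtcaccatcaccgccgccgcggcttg
The Cd36 window held 43.0% G and C and 3 CpG, against 59.0% and 8 CpG for Thbs3 and 67.3% and 28 CpG for Scarb2. The medians over 32851 mouse windows were 52.7% and 7 CpG. The 2 GC boxes of Cd36, starting at -109 and -93 from its start, lay in adjacent copies of the 16-base unit aggggcggctcaaatc, and 35.7% of all windows held a GC box. Cd36 has several starts, and this window covers only 1 of them. It lies 52905 bases inside the outermost start of the GENCODE M21 annotation. The start used for Scarb2 lies 1176 bases inside its own outermost start there, and that used for Thbs3 is the outermost. The search covered 4 other motifs on both strands, and no match overlapped another: the MEF3 motif TCAGGTT (4.07% of all windows), the AP-1 motif TGANTCA (7.81%), the E-box CACGTG (7.15%) and TATAAA (13.6%). None of those 4 occurred in the 3 windows shown. Windows were held for 5 members, the others being Thbs2 and Thbs4. The Thbs2 window (chromosome 17) held TATAAA once, on the minus strand, and the Thbs4 window (chromosome 13) held 3 GC boxes.

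Per length, Thbs1 was the leading thrombospondin in every group. It averaged 63.1 ± 9.39 CPM per kilobase of exon in shEya3_KD1 cells, 22.2 ± 4.92 in shEya3_KD2 cells and 3.17 ± 0.447 in SCR cells. By this level 94.6%, 83.4% and 43.4% of tested genes lay below it in the same groups. Scarb1 and Scarb2 stood close together, at 9.85 ± 0.649 and 9.55 ± 0.484 CPM per kilobase in shEya3_KD1, 10.6 ± 0.564 and 11.7 ± 0.534 in shEya3_KD2, and 12.5 ± 0.351 and 10.5 ± 0.372 in SCR. Thbs3 and Cd36 were far lower than either. Cd36 averaged 0.733 ± 0.112 CPM per kilobase in shEya3_KD1 cells, 0 in shEya3_KD2 cells and 0.324 ± 0.0328 in SCR cells. Thbs3 averaged 0.400 ± 0.113, 1.04 ± 0.118 and 0.164 ± 0.0362 CPM per kilobase in these groups. Thbs2 and Thbs4 were at the edge of detection. The order of levels thus ran Thbs1, Scarb1 and Scarb2, Cd36, Thbs3 in shEya3_KD1, and Scarb1, Scarb2, Thbs1, Cd36, Thbs3 in SCR. In shEya3_KD2 it ran Thbs1, Scarb2, Scarb1, Thbs3, with Cd36 at 0. In shEya3_KD1 the means of Scarb1 and Scarb2 differed by less than their SDs. Within each library of that group Scarb1 was slightly the higher, at a ratio of 1.01 to 1.04.

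**Figure D1:**
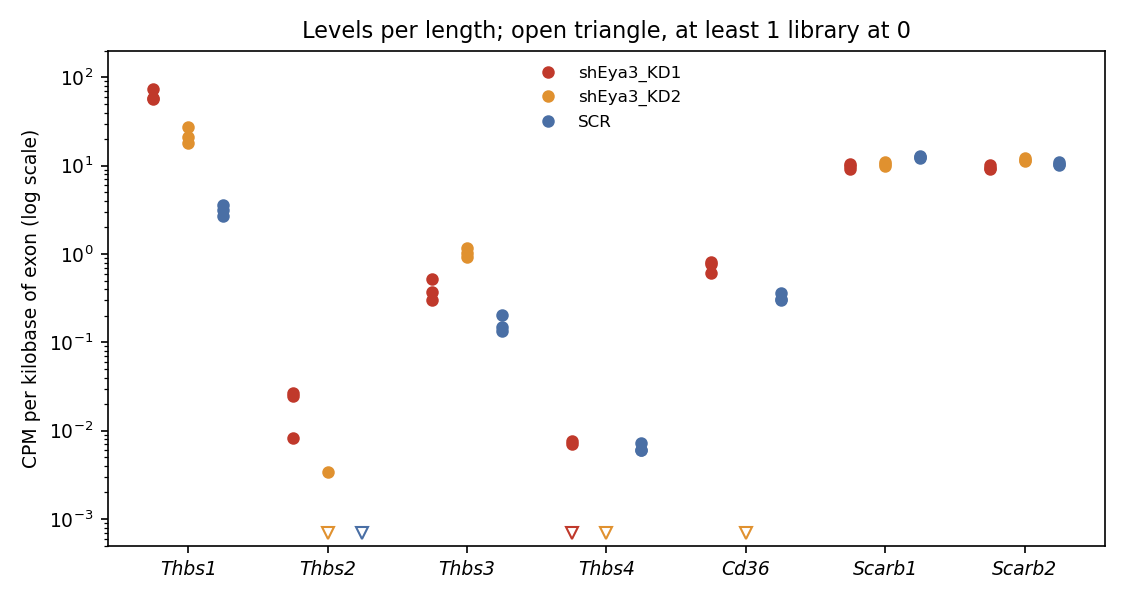
Level of each member per kilobase of exon (log scale) in each library, coloured by group, with open triangles at the bottom for groups with at least 1 library at 0. Thbs1 averages 63.1 CPM per kilobase in shEya3_KD1 and 3.17 in SCR, while Scarb1 and Scarb2 stay near 10 in all groups.

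Thbs1 (mm10, chromosome 2, 118111876 to 118127133, plus strand) was higher with both Eya3 hairpins. Its level was 449, 351 and 349 CPM in the shEya3_KD1 libraries, 128, 167 and 108 CPM in the shEya3_KD2 libraries, and 16.5, 19.3 and 22.0 CPM in the SCR libraries. The 3 groups did not overlap, with shEya3_KD1 highest and SCR lowest. The log2 fold change was 4.31 ± 0.19 (SE) for shEya3_KD1 and 2.80 ± 0.18 for shEya3_KD2 against SCR, and -1.51 ± 0.17 for shEya3_KD2 against shEya3_KD1. Raw counts were 12108 to 17969, 4526 to 6578 and 835 to 983 in the same groups, so counting error was small beside the spread between libraries. In the annotation 208 bases of Thbs1 exons, 3.42% of their length, also belong to Gm29233, a noncoding gene on the other strand. Gm29233 had 27 counts in shEya3_KD1, 9 in shEya3_KD2 and 0 in SCR libraries, and without a stated strand setting its reads and those of Thbs1 cannot be told apart there.

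**Figure D2:**
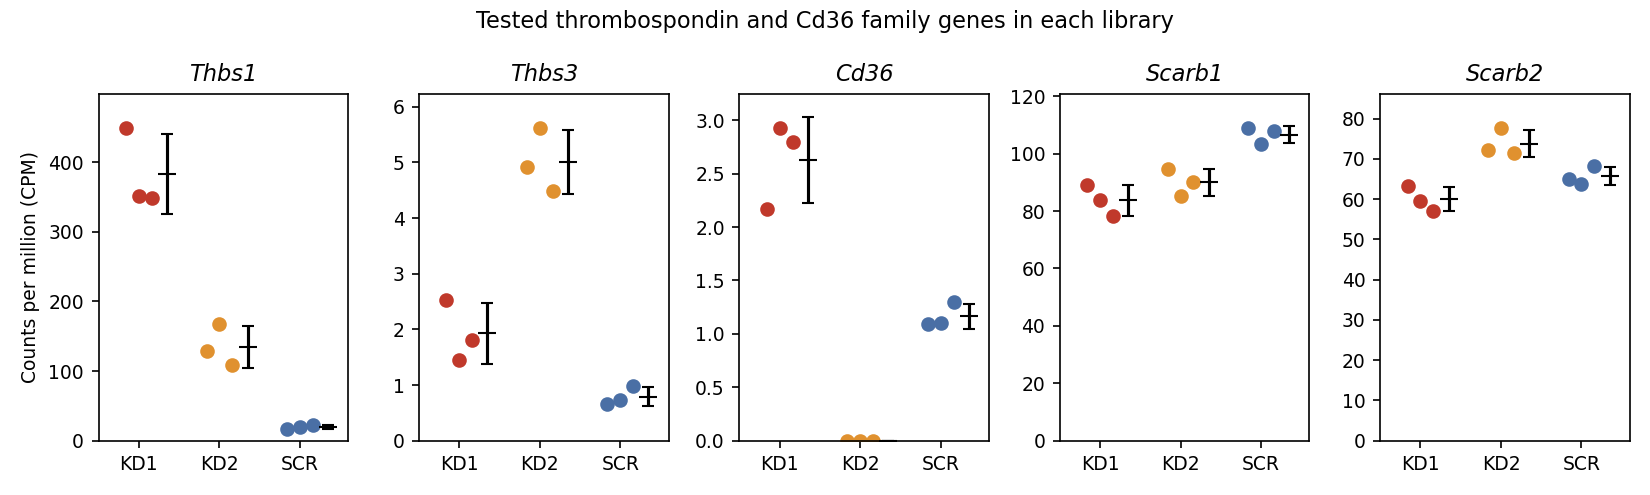
CPM of the 5 members with enough counts for the fit, in each library of shEya3_KD1 (KD1), shEya3_KD2 (KD2) and SCR, each panel with its own axis from 0 and with the mean and SD at the right of each group. Thbs1 and Thbs3 libraries of the 3 groups do not overlap, Cd36 is at 0 in all 3 shEya3_KD2 libraries, and Scarb1 and Scarb2 differ little.

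Thbs3 (chromosome 3, 89215180 to 89226837, plus strand), a pentamer-forming thrombospondin of cartilage, bone and other connective tissue, rose with both hairpins, most with shEya3_KD2. Its level was 2.52, 1.45 and 1.82 CPM in the shEya3_KD1 libraries, 4.91, 5.61 and 4.48 CPM in the shEya3_KD2 libraries, and 0.653, 0.728 and 0.986 CPM in the SCR libraries. Here shEya3_KD2 was the highest group, above shEya3_KD1, while for Thbs1 the order of the hairpins was the other way round. The log2 fold change was 1.30 ± 0.23 for shEya3_KD1 against SCR (edgeR adjusted p = 2.06e-04) and 2.67 ± 0.21 for shEya3_KD2 against SCR (edgeR adjusted p = 1.22e-07). Between the hairpins, shEya3_KD2 against shEya3_KD1, it was 1.37 ± 0.19 (edgeR adjusted p = 2.34e-05). Exons of Thbs3 share 318 bases, 6.59% of its exon length, with Mtx1, a mitochondrial import gene on the other strand. Mtx1 averaged 63.9 ± 1.90 CPM in shEya3_KD1, 44.9 ± 3.85 CPM in shEya3_KD2 and 48.9 ± 3.12 CPM in SCR cells, and its shEya3_KD2 and SCR libraries overlapped. Its log2 fold change was 0.39 ± 0.07 for shEya3_KD1 and -0.12 ± 0.07 for shEya3_KD2 against SCR (edgeR adjusted p = 4.86e-04 and 0.212), and the share of Mtx1 reads in the Thbs3 counts was not tested.

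Thbs2 and Thbs4 did not pass the filter on low counts. Thbs2 (chromosome 17), which like Thbs1 restrains vessel growth, had 7, 8 and 2 counts in the shEya3_KD1 libraries, 0, 0 and 1 in the shEya3_KD2 libraries and none in SCR. With 17 counts over the shEya3_KD1 group, taken as exact, against none in SCR, it was at least 6.90-fold higher. That bound sets SCR to a floor of 3 counts per group. Thbs2 was seen in 3 of 3 shEya3_KD1 libraries. Thbs4 (chromosome 13), a thrombospondin of tendon and muscle, had 2 counts in shEya3_KD1, 0 in shEya3_KD2 and 3 in SCR libraries, at or under that floor. Comp, the remaining pentameric thrombospondin, was low and fell with both hairpins, opposite to Thbs3. It averaged 0.323 ± 0.135 CPM in shEya3_KD1 cells, 0.340 ± 0.0898 CPM in shEya3_KD2 cells and 0.933 ± 0.147 CPM in SCR cells. Its log2 fold change was -1.49 ± 0.29 and -1.51 ± 0.29 (edgeR adjusted p = 5.33e-04 and 6.79e-04).

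The make-up of the thrombospondin messages changed less than their sum. Per length, the 4 genes together gave 57.8 to 74.5 CPM per kilobase in shEya3_KD1, 18.8 to 28.7 in shEya3_KD2 and 2.86 to 3.83 in SCR libraries. Thbs1 made up 99.3% to 99.4%, 95.0% to 95.9% and 94.5% to 95.3% of that sum in the same groups. The ratio of Thbs1 to Thbs3 per length was 141 to 192 in shEya3_KD1, 19.2 to 23.6 in shEya3_KD2 and 17.7 to 21.1 in SCR libraries. The shEya3_KD2 and SCR ratios overlapped, while those of shEya3_KD1 lay apart.

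Cd36 (chromosome 5, 17781690 to 17888801, minus strand) lay on opposite sides of SCR with the 2 hairpins. It had 87, 125 and 97 counts in the shEya3_KD1 libraries, no count in any shEya3_KD2 library, and 55, 56 and 54 counts in the SCR libraries. In CPM these were 2.17, 2.93 and 2.80 in shEya3_KD1, 0 in shEya3_KD2, and 1.09, 1.10 and 1.30 in SCR. All shEya3_KD1 libraries were above all SCR libraries, and all shEya3_KD2 libraries were below them. The log2 fold change for shEya3_KD1 against SCR was 1.18 ± 0.18. Over the group, 0 counts in shEya3_KD2 were at least 46.4-fold lower than in SCR and at least 106-fold lower than in shEya3_KD1. These are bounds at the same floor, which is 0.0249 CPM in shEya3_KD2. The floor allows for counting error in shEya3_KD2 only, with the counts of the other groups taken as exact. Cd36 marks adipocytes, macrophages, platelets and small vessels in tissue. The summed markers of adipocytes and of macrophages, given above, were lower with both hairpins than in SCR. Fabp4, the only 1 of the 8 adipocyte markers tested, led their sum, at 0.487, 0.159 and 1.73 CPM in shEya3_KD1, shEya3_KD2 and SCR. Among the endothelial markers, Emcn had 264, 0 and 2 counts in these groups and Vwf had 74, 27 and 29. Cdh5 (31, 253 and 530) and Tie1 (21, 12 and 103) were highest in SCR, as was the sum of the 10 markers. The part of such cells in the Cd36 values was not tested. Not all macrophage markers followed their sum, which Lyz2 and Cd14 lead in SCR. With shEya3_KD1 1 of the 6 tested was called higher and 4 lower, and with shEya3_KD2 2 were called higher and 3 lower. The shares over all genes tested were 24.1% higher and 26.2% lower with shEya3_KD1, and 23.0% and 22.3% with shEya3_KD2. C1qb, called higher with both, had 32 counts in shEya3_KD1, 44 in shEya3_KD2 and 4 in SCR libraries. It passed the filter on low counts only through the knockdown libraries, so the numbers called do not describe the list. Cd68 rose with shEya3_KD2 by 0.32 ± 0.12, a call lost, at 0.26 to 0.37, without shEya3_KD2 replicate 1 or 3 or any 1 SCR replicate.

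The other 2 receptors, Scarb1 and Scarb2, differed little between the groups. Scarb1 (chromosome 5, 125277087 to 125341094, minus strand) was at 89.2, 83.7 and 78.2 CPM in shEya3_KD1, 94.8, 85.2 and 90.0 CPM in shEya3_KD2, and 109, 103 and 108 CPM in SCR libraries. It fell in both groups of knockdown cells, whose libraries overlapped with each other and lay below all SCR libraries. The log2 fold change was -0.35 ± 0.07 for shEya3_KD1 (edgeR adjusted p = 5.11e-04) and -0.24 ± 0.07 for shEya3_KD2 (edgeR adjusted p = 0.00837). Both changes are under 1.5-fold, and neither was called against a minimum of that size. Between the hairpins it was 0.10 ± 0.07 (edgeR adjusted p = 0.219).

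Scarb2 (chromosome 5, 92441314 to 92506833, minus strand) was at 63.2, 59.6 and 57.2 CPM in shEya3_KD1, 72.3, 77.6 and 71.5 CPM in shEya3_KD2, and 65.1, 63.8 and 68.3 CPM in SCR libraries. No groups overlapped, with shEya3_KD2 highest and shEya3_KD1 lowest. The log2 fold change against SCR was -0.13 ± 0.07 for shEya3_KD1 and 0.17 ± 0.07 for shEya3_KD2, and neither passed (edgeR adjusted p = 0.109 and 0.0506). The value for shEya3_KD2 sits at the threshold: without shEya3_KD1 replicate 1 its edgeR adjusted p was 0.0410, and without shEya3_KD2 replicate 3 it was 0.0414. Between the hairpins Scarb2 was higher in shEya3_KD2, at 0.30 ± 0.07 (edgeR adjusted p = 0.00160), again under 1.5-fold. Set against SCR, Thbs3 rose and Scarb1 fell among the 3 members with a test, with either hairpin. For comparison, 24.1% of all genes tested were called higher and 26.2% lower in shEya3_KD1 cells, and 23.0% higher and 22.3% lower in shEya3_KD2 cells. Between the hairpins Thbs3 and Scarb2 were higher in shEya3_KD2, as were 27% of genes, and 22.5% were lower. Libraries that do not overlap were also common: shEya3_KD1 libraries were all above SCR in 28.9% of genes and all below in 30.4%, shEya3_KD2 libraries in 27.4% and 27%, and shEya3_KD2 libraries against shEya3_KD1 in 29.5% and 24.8%. With 3 genes, these counts are not set apart from those shares.

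**Figure D3:**
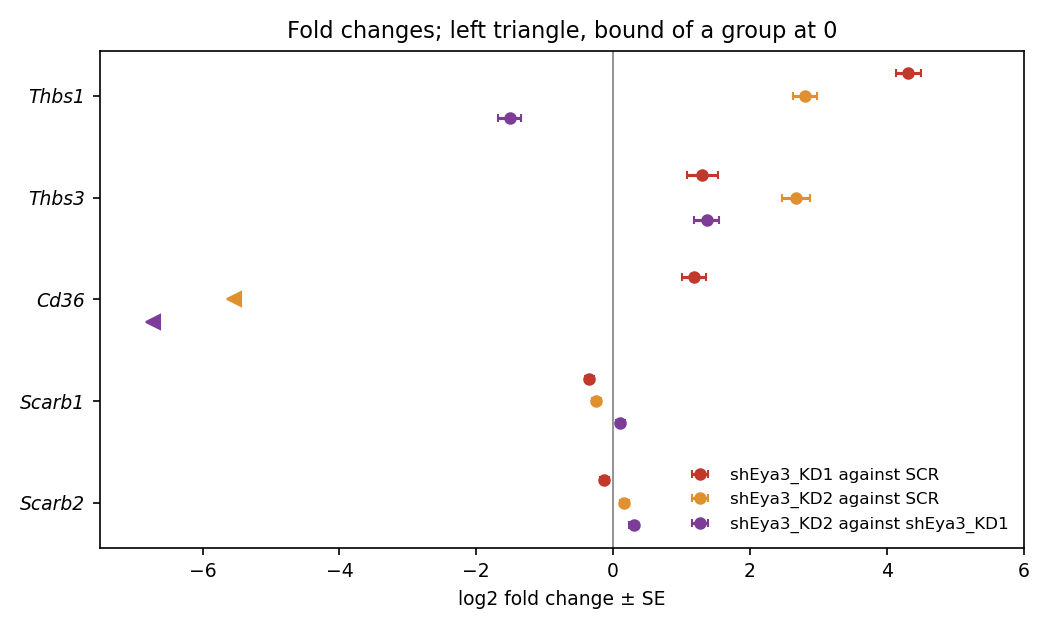
Log2 fold change with its SE for the 5 members in the fit, in the 3 comparisons. Left-pointing triangles are bounds for Cd36 in shEya3_KD2, which had no counts and was set to a floor of 3, with the other group's counts taken as exact. Thbs1 reaches 4.31 and Thbs3 2.67 against SCR, and Scarb1 and Scarb2 lie within 0.35 of 0.

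Among the 3 receptors, Cd36 made up 2.86% to 4.08% of the summed level per length in shEya3_KD1, 0% in shEya3_KD2 and 1.29% to 1.51% in SCR libraries. The ratio of Scarb1 to Scarb2 per length was 1.01 to 1.04, 0.811 to 0.970 and 1.17 to 1.24 in these groups. It did not overlap between the groups.

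The related genes below were read from the same fit. Over all genes tested, 24.1% were called higher and 26.2% lower with shEya3_KD1, and 23.0% higher and 22.3% lower with shEya3_KD2. The counts of each list stand beside these shares, and no list was tested as a set. Medians of log2 fold change over all genes tested were 0.01 for shEya3_KD1 and -0.00 for shEya3_KD2 against SCR. The 2 comparisons share the SCR libraries, so similar values in both are not separate evidence.

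Receptors of thrombospondins other than Cd36 moved in both directions. Of 18 listed, 14 were tested; 4 rose and 6 fell with shEya3_KD1 (median -0.11), and 4 rose and 5 fell with shEya3_KD2 (median 0.07). Cd47, the receptor of the Thbs1 C-terminal domain and the "do not eat me" signal to macrophages, fell with shEya3_KD1 (38.7 ± 3.02 CPM, against 69.5 ± 4.28 CPM in SCR; log2 fold change -0.84 ± 0.09, edgeR adjusted p = 2.16e-06). With shEya3_KD2 it was at 81.0 ± 10.7 CPM (0.22 ± 0.09, edgeR adjusted p = 0.0628). Vldlr, a lipoprotein and reelin receptor, rose with both, by 0.81 ± 0.07 and 1.23 ± 0.07, and the integrin Itga3 rose with shEya3_KD1 by 0.89 ± 0.09. Cacna2d1, the calcium channel subunit that binds thrombospondins at synapses, fell with both (-1.93 ± 0.14 with shEya3_KD1 and -1.01 ± 0.13 with shEya3_KD2). Stim1, a calcium sensor of the endoplasmic reticulum, fell likewise (-0.89 ± 0.07 and -0.74 ± 0.07). Lrp1, which with Calr clears thrombospondin from the cell surface, passed with shEya3_KD2 (1.07 ± 0.33, edgeR adjusted p = 0.0343), but not without shEya3_KD1 replicate 1, shEya3_KD2 replicate 2, SCR replicate 1 or SCR replicate 3, where it lay between 0.65 and 1.13. The integrin subunit Itgav did not pass with either hairpin (-0.15 ± 0.09 and 0.04 ± 0.09).

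Of 38 other proteins with type 1 repeats, 11 had enough counts to be tested, Thsd1 only through shEya3_KD1. With shEya3_KD1 5 rose and 3 fell (median 0.00), and with shEya3_KD2 2 rose and 3 fell (median -0.01). The second count was 3 in all without shEya3_KD2 replicate 2, SCR replicate 1 or SCR replicate 3. Thsd1 is among the 5 that rose with shEya3_KD1, the group that let it in, so neither that count nor its median describes the list. Ccn2, a matricellular growth factor partner, rose with shEya3_KD1 (58.1 ± 5.44 CPM, against 27.5 ± 3.47 CPM in SCR; log2 fold change 1.08 ± 0.10). Unc5d, a netrin receptor, fell with both (-2.26 ± 0.12 with shEya3_KD1 and -0.97 ± 0.11 with shEya3_KD2), as did Adamtsl5 (-1.53 ± 0.07 and -0.78 ± 0.07).

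Latent TGF-beta and the genes that activate it moved in both directions. With shEya3_KD1 all 9 tested of 13 listed were called, 3 up and 6 down (median -0.79), and with shEya3_KD2 4 rose and 3 fell (median 0.17), or 4 called in all without SCR replicate 3. Tgfb1, the ligand that Thbs1 can activate, averaged 78.1 ± 7.55 CPM in shEya3_KD1, 137 ± 3.62 CPM in shEya3_KD2 and 157 ± 5.69 CPM in SCR cells. It fell by 1.01 ± 0.07 with shEya3_KD1 (edgeR adjusted p = 2.15e-08). With shEya3_KD2 it fell by 0.20 ± 0.07 (edgeR adjusted p = 0.0366), a call lost, with values of -0.21 to -0.17, without shEya3_KD1 replicate 2, shEya3_KD2 replicate 1 or 3, or SCR replicate 2 or 3. The latent TGF-beta binding protein Ltbp1 rose with both hairpins (1.29 ± 0.08 and 0.96 ± 0.08), while Ltbp2 fell with both (-2.03 ± 0.14 and -0.71 ± 0.13).

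Of 12 TGF-beta induced genes 10 were tested, and 4 rose and 4 fell with shEya3_KD1 (median -0.04) and 2 rose and 3 fell with shEya3_KD2 (median -0.07). Pmepa1, a feedback inhibitor of the pathway, fell by 1.61 ± 0.08 with shEya3_KD1. Id1, an inhibitor of basic helix-loop-helix factors that is known to repress Thbs1, rose with both hairpins, to 60.0 ± 4.59 CPM in shEya3_KD1 and 44.1 ± 2.53 CPM in shEya3_KD2, against 26.99 ± 0.933 CPM in SCR (1.15 ± 0.07 and 0.71 ± 0.07).

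Nitric oxide and cGMP signalling is the pathway that Thbs1 inhibits through Cd36 and Cd47. Of 10 genes listed 5 were tested. With shEya3_KD1 1 rose and 3 fell (median -2.68), and with shEya3_KD2 none rose and 3 fell (median -1.63). The guanylate cyclase genes were nearly without counts, so the tested genes do not cover the pathway. Gucy1a1 had 1, 0 and 0 counts in shEya3_KD1, shEya3_KD2 and SCR, Gucy1b1 had 2, 0 and 3, and Gucy1a2 had none. The kinase gene Prkg1 had 2, 0 and 2. Nos1, the neuronal nitric oxide synthase, was at 8.20 ± 0.846 CPM in shEya3_KD1, 13.4 ± 2.44 CPM in shEya3_KD2 and 88.8 ± 11.3 CPM in SCR cells. Its log2 fold change was -3.43 ± 0.13 (edgeR adjusted p = 2.03e-10) and -2.74 ± 0.13 (edgeR adjusted p = 5.04e-09). Pde5a, which degrades cGMP, fell with both (-2.68 ± 0.14 and -2.05 ± 0.13), and the inducible synthase Nos2, at 0.0772 ± 0.00836, 0.320 ± 0.0770 and 0.961 ± 0.139 CPM, fell too (-3.60 ± 0.34 and -1.63 ± 0.25). The cGMP-dependent kinase gene Prkg2 rose with shEya3_KD1, by 0.53 ± 0.07.

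Transcription factors known to act on Thbs1 were all 10 tested, and 2 rose and 3 fell with shEya3_KD1 (median -0.06; 3 called without SCR replicate 1), and 4 rose and none fell with shEya3_KD2 (median 0.10). Egr1, an immediate early factor, fell with shEya3_KD1 (3.89 ± 0.369 CPM, against 34.4 ± 13.5 CPM in SCR; -3.13 ± 0.37, edgeR adjusted p = 1.75e-04). Myc, a repressor of Thbs1, rose by 0.51 ± 0.07 with shEya3_KD2 (edgeR adjusted p = 2.97e-05) and was at 0.09 ± 0.07 with shEya3_KD1 (edgeR adjusted p = 0.282).

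Of 10 factors known to act on Cd36, 7 were tested; 3 rose and 3 fell with shEya3_KD1 (median -0.21), and 4 rose and none fell with shEya3_KD2 (median 0.51). Pparg, the nuclear receptor best known to induce Cd36, had 49 counts over the shEya3_KD1 libraries, against 1 in SCR, a ratio of 59.6 with a 95% counting interval of 10.2 to 2403. It passed the filter on low counts only through shEya3_KD1 and is among the 3 that rose there. Neither the shEya3_KD1 count nor the medians therefore describe the list. With shEya3_KD2 it had 6 counts, a ratio of 7.11 (0.862 to 327) to SCR. Ppard, a related receptor at far higher level, fell by 1.08 ± 0.08 with shEya3_KD1. Nfe2l2 (Nrf2) rose with both (0.27 ± 0.07 and 0.53 ± 0.07), and Rxra, the partner of these receptors, rose with shEya3_KD2 by 0.70 ± 0.12.

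Partners of Cd36 were all 12 tested, and 4 rose and 4 fell with shEya3_KD1 (median -0.02) and 4 rose and 2 fell with shEya3_KD2 (median 0.11). Cav1, the coat protein of caveolae, rose with both hairpins, at 207 ± 13.5 CPM in shEya3_KD1 and 211 ± 6.69 CPM in shEya3_KD2, against 78.5 ± 3.41 CPM in SCR (1.40 ± 0.07 and 1.42 ± 0.07). The kinase gene Fyn rose with both (0.44 ± 0.07 and 0.46 ± 0.07), and the toll-like receptor Tlr2 fell with shEya3_KD1 (-1.09 ± 0.10) while its partner Tlr6 rose (0.99 ± 0.12).

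Genes of fatty acid uptake and binding had 14 tested of 22; 2 rose and 8 fell with shEya3_KD1 (median -0.38), and 3 rose and 5 fell with shEya3_KD2 (median -0.11). Fabp4, the fatty acid binding protein of adipocytes and macrophages, was at 0.487 ± 0.126 CPM in shEya3_KD1, 0.159 ± 0.0553 CPM in shEya3_KD2 and 1.73 ± 0.327 CPM in SCR cells, and fell with both (-1.82 ± 0.24 and -3.51 ± 0.30). Fabp4 is also among the adipocyte markers summed above. The transporter gene Slc27a6 fell with both (-2.36 ± 0.13 and -1.90 ± 0.12), as did Slc27a4 (-0.54 ± 0.10 and -0.34 ± 0.10). Cpt1a, which admits fatty acids to mitochondrial oxidation, rose with both (0.44 ± 0.12 and 0.58 ± 0.12).

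The lipoprotein receptors and efflux genes include the pathway in which Scarb1 acts. Of 13 tested of 18, 4 rose and 4 fell with shEya3_KD1 (median 0.08), and 6 rose and none fell with shEya3_KD2 (median 0.18). Lipg, the endothelial lipase that acts on high density lipoprotein, was at 1.55 ± 0.430 CPM in shEya3_KD1, 30.4 ± 1.78 CPM in shEya3_KD2 and 14.2 ± 0.473 CPM in SCR cells. It fell by 3.21 ± 0.13 with shEya3_KD1 and rose by 1.10 ± 0.10 with shEya3_KD2. Pltp, the phospholipid transfer protein, followed the same signs (-0.80 ± 0.10 and 1.26 ± 0.09).

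Scavenger receptors of other classes gave 8 tested of 16; 4 were called higher and 3 lower with shEya3_KD1, and 2 higher and 2 lower with shEya3_KD2. Scara5, Scarf2 and Megf10, 3 of the 4 higher with shEya3_KD1, passed the filter on low counts only through that group, and Stab1 only through SCR, so neither the counts nor a median describes the list. Scara5, a ferritin receptor, had 67 counts over the shEya3_KD1 libraries, against 2 in SCR (ratio 40.8, 95% counting interval 10.9 to 344). Scarf2 had 47, against 3 (19.1, 6.14 to 95.8). Cd14, the endotoxin co-receptor, was at 7.29 ± 0.238 CPM in shEya3_KD1, 11.4 ± 0.382 CPM in shEya3_KD2 and 27.7 ± 1.36 CPM in SCR cells, and fell with both (-1.93 ± 0.08 and -1.28 ± 0.07). Cd14 is also among the macrophage markers summed above.

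The lysosome list, the compartment of Scarb2, had all 27 genes tested; 8 rose and 9 fell with shEya3_KD1 (median -0.03), and 3 rose and 13 fell with shEya3_KD2 (median -0.18). Ctsl, a cathepsin, was at 2233 ± 105 CPM in shEya3_KD1, 2212 ± 113 CPM in shEya3_KD2 and 5231 ± 266 CPM in SCR cells (-1.23 ± 0.07 and -1.24 ± 0.07). Npc1, which exports cholesterol from the lysosome, did not pass with either hairpin (0.16 ± 0.08 and 0.15 ± 0.08).

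**Figure D4:**
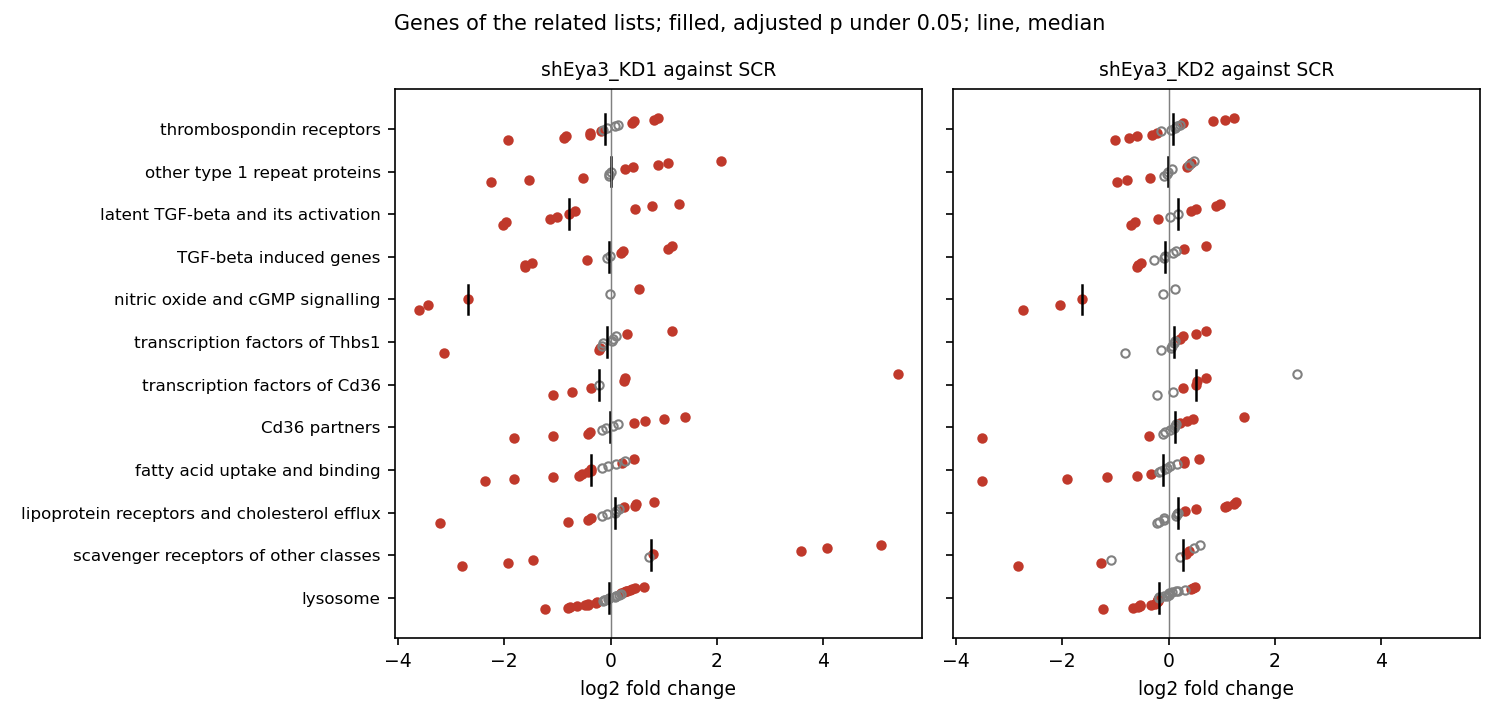
Log2 fold change of each tested gene of the related lists (rows) in shEya3_KD1 and shEya3_KD2 against SCR, filled where the adjusted p was under 0.05, with a black line at each list's median. Genes of most lists lie on both sides of 0, the scavenger receptors farthest to the right with shEya3_KD1 passed the filter through that group, and both panels share the SCR libraries.

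The genes whose log2 CPM followed each member most closely over the 9 libraries were taken from 11189 tested genes with a group mean of at least 1 CPM. The 3 groups differ, so a high Pearson r mostly reports that 2 genes share an order of groups, and many genes do: 658 genes had r over 0.9 with Thbs1 and 352 with Cd36. Nearest to Thbs1 were Plekhh2, Mrc2 (a collagen receptor), Asap1, Camsap3 and Tsc22d3, with Plekhh2 at r = 0.998. Mrc2 averaged 78.6 ± 11.2 CPM in shEya3_KD1, 20.5 ± 3.80 CPM in shEya3_KD2 and 1.12 ± 0.194 CPM in SCR cells. Nearest to Cd36 were Tpm2 (a tropomyosin), Acacb (an acetyl-CoA carboxylase), Alox5ap (the partner of 5-lipoxygenase), Vtcn1 (an inhibitory ligand of T cells) and Xlr3c, with Tpm2 at r = 0.994. Alox5ap averaged 19.5 ± 1.52 CPM in shEya3_KD1, 5.06 ± 0.686 CPM in shEya3_KD2 and 16.2 ± 0.363 CPM in SCR cells, so none of its groups was at 0 as Cd36 was. Thbs3 was followed most closely by Xdh, Ercc4 and Kif15, Scarb1 by Cs (citrate synthase) and Cap1, and Scarb2 by Susd6, Soga3 and Slc38a2. Between members, r was 0.61 for Thbs1 with Thbs3, 0.02 for Thbs1 with Cd36, -0.92 for Thbs1 with Scarb1 and -0.89 for Cd36 with Scarb2, over the same 9 libraries that share their 3 groups.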

How the data were processed

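Libraries of 66cl4 RNA were prepared with a NuGEN mRNA-Seq kit, per the labels' protocols. The submitters' processing notes list STAR, FastQC, MultiQC and mm10, with no version. How reads were assigned to genes, and with which annotation or strand setting, is not given in the sources used here. Raw read counts per gene symbol were deposited by the authors and used unaltered. All 55418 symbols matched GENCODE M21.

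Counts were fitted in R 4.3.3 with edgeR 4.0.16: filterByExpr (15914 genes), TMM scaling and 1 robust quasi-likelihood fit over 9 libraries with the group as the only term. The adjusted p (Benjamini-Hochberg) was over all genes tested, at 0.05. CPM used TMM-scaled totals, and levels per length used the M21 exon length. The fit was tested on simulated data. A group without counts was set to 3 counts, with the counts of the other group taken as exact, and 95% counting intervals were exact binomial. The floor covers counting error of the empty group only, and the intervals cover counting error only. No library repeated another, since chi-square per degree of freedom between replicates was 9.24 to 45.2.

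The members, the 19 gene lists and their naming rule (the list genes with the largest and smallest called change, plus genes sharing a role with a member) were chosen with earlier results of these data known. DESeq2 1.42.0, RLE size factors, other filters, a minimum fold, the groups compared alone, the replicate number and each library left out were alternatives. RefSeq promoter windows (GRCm38.p6) matched 5 of 7 members; Thbs1 and Scarb1 had none. Some genes of the lists are not reported here.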

Additional observations from a re-analysis of the deposited data

Results flagged for a closer look

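Thbs3 responded differently to the 2 hairpins: its log2 level was higher by 1.37 ± 0.19 in shEya3_KD2 than in shEya3_KD1. Scarb2 also differed between the hairpins, by 0.30 ± 0.07, with shEya3_KD2 higher. For Cd36 every shEya3_KD1 library lay above every SCR library (log2 fold change 1.18 ± 0.18), and every shEya3_KD2 library lay below them, at 0 counts. That difference between the hairpins was not tested, since earlier values of Cd36 were known when the genes were grouped.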

How the results depend on the processing

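The 5 members in the fit kept the direction of their fold changes under the alternatives that included them; Thbs2 and Thbs4 have no fitted value. Against a minimum fold of 1.5 (glmTreat), shEya3_KD1 differed from SCR in 2591 genes in place of 8011, shEya3_KD2 differed from SCR in 1456 in place of 7210, and shEya3_KD2 differed from shEya3_KD1 in 2087 in place of 7889. Scarb1 (-0.35 with shEya3_KD1 and -0.24 with shEya3_KD2) and Scarb2 between the hairpins (0.30) were then not called, and the values themselves are the same in that fit. DESeq2 gave Cd36 a log2 fold change of -7.95 in shEya3_KD2 against SCR and -9.13 against shEya3_KD1, where edgeR gave -8.62 and -9.80, and with 0 counts in shEya3_KD2 none of these is a bound. Leaving out single libraries, Scarb2 in shEya3_KD2 against SCR ranged from 0.13 to 0.19, Lrp1 in shEya3_KD1 against SCR from -0.10 to 0.21, and in shEya3_KD2 against SCR Itgav from -0.090 to 0.132 and Ccn2 from -0.157 to 0.0216. None of the last 3 comparisons was called with all libraries. A filter of 5 CPM in 3 libraries removed Thbs3, Cd36 and Comp from the fit.

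Same-numbered libraries of different groups deviated together in 3 of 9 pairs (r over 0.1; range -0.11 to 0.20), and 5 of 9 libraries followed their own number best, so the numbers were not taken as pairs. With the replicate block, 8093, 7329 and 8017 genes were called. Counting depth limits Thbs2 and Thbs4, which had at most 17 counts in a group.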
